A study of Sus scrofa with 2 samples.

Results

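Exon-like arrays were rows of short stretches of genome that held sequencing reads, separated by gaps with few reads. Reads of both libraries were pooled and joined into a region wherever read starts lay within 200 bases of each other, and regions with 20 or more pooled reads were kept. A stretch at one end of chromosome 6 that the selection rule excludes was left out. Regions of 500 bases or less, from the first base of the first read to the last base of the last, were then chained along each chromosome when the gap between neighbours was 10 kb or less. Members are the regions in chains of 15 or more. There were 629 members in 33 arrays, out of 75532 regions and 24694 short regions, so the members made up 2.55% of the short regions. Position, width, spacing and pooled read number chose the members, and they are described below without a test.

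The study sequenced poly(A) RNA, taken through 2 rounds of selection, from cultured cells of Danish Landrace x Yorkshire cross pig embryos collected between days 17 and 24 of gestation. One library came from embryonic germ cells (pEGC), which grow out of migrating primordial germ cells, and 1 library came from embryonic fetal fibroblasts (pFF). The germ cells were kept on STO feeder cells, a mouse fibroblast line stopped from dividing with mitomycin C, in medium that held 10 ng/ml of LIF, the same of SCF and 3 ng/ml of bFGF. The labels carry the same culture text for both libraries, so the medium of the fibroblasts is not known from them, and the series title speaks of mini pig embryos while the sample labels name the Danish Landrace x Yorkshire cross. With 1 library per group there is no replicate check. No p-value is given, and the intervals below are exact Clopper-Pearson 95% intervals that cover counting error only.

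In a gene of a higher animal the parts kept in the mature messenger RNA, the exons, are mostly short and lie between longer introns that are cut out before the RNA leaves the nucleus. Reads of mature RNA placed on the genome therefore pile up on exons, and many internal exons in a row would appear as a row of short piles. The last exon of a gene often carries a long untranslated stretch and would appear as a wide region. Intron-containing precursor RNA gives thin reads between the piles. RNA selected by its poly(A) tail can hold more reads near the 3′ end of a gene than near the 5′ end. The genome build behind the coordinates is not given in the sources used here, so no gene, exon or strand of transcription was assigned to an array, and whether members are exons was not tested directly. All coordinates are 1-based, as the reads place them. Since the reads alone are described, fewer cells that make an RNA and less RNA per cell cannot be told apart, nor can reads of pig cells and of feeder cells that match both genomes.

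Arrays are named here by chromosome and a letter in order of position. They lay on 15 chromosomes. Chromosome 1 held 12 of the 33 arrays and 262 of the 629 members, or 41.7% of the members against 12.9% of all short regions. Each remaining chromosome with an array held 1 to 3. The arrays had 15 to 43 members with a median of 18, and spanned 21.1 to 108 kb with a median of 54.3 kb. Array 1D, with 43 members between 113303638 and 113412085 on chromosome 1, was both the longest and the one with the most members. Array 2A, with 15 members between 118871944 and 118893081 on chromosome 2, was the shortest. Members covered 4.43% to 12.3% of the span of their array, with a median of 7.96%.

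Most short regions were not in rows. They formed 12435 runs under the same gap limit, of which 7428 were a single region. Just under the limit of 15 there were 11 runs of 14 regions, and just over it 7 arrays of 15 and 3 of 16. Among the members, 68 had 20 to 24 pooled reads, 35 were wider than 450 bases and 22 were followed by a gap of more than 9 kb. Within the arrays' spans a further 1611 groups of reads fell short of 20 reads, 70 of them with 15 to 19.

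Members were narrow within the allowed range. Width ran from 50 to 500 bases with a median of 215 (quartiles 149 and 313), and 417 members (66.3%) were between 100 and 300 bases. Short regions outside the arrays had a median width of 252 bases. Because a few stray reads can stretch a region, a core width was added after the widths were seen, as the stretch that holds the central 90% of read starts plus the read. The median core width was 149 bases for members (quartiles 118 and 197) and 163 bases for other short regions. Among regions with 200 or more pooled reads it was 125 bases for 59 members and 142 bases for 1767 other short regions.

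**Figure D1:**
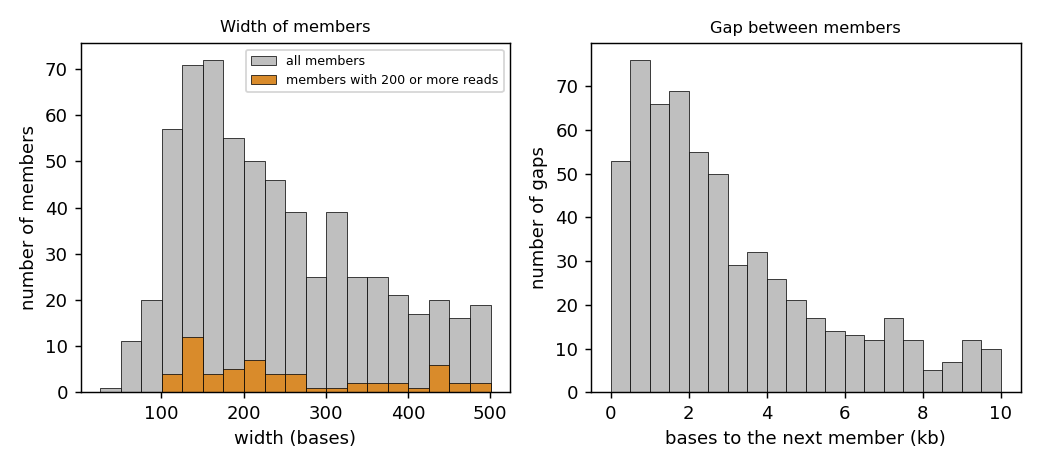
Left, number of members by width in bins of 25 bases, for all 629 members (grey) and the 59 members with 200 or more pooled reads (orange). Right, number of the 596 gaps by length in bins of 0.5 kb; most members are under 300 bases wide and most gaps are under 5 kb, out to the limits of 500 bases and 10 kb that the selection set.

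Array 1E held many members of nearly the same width. Of its 22 members, 8 were 120 to 130 bases wide, a window set after the values were seen. Of all members 39 (6.20%) fell in that window, and 3.26% of short regions outside the arrays did. Next came array 2A with 4 of 15 members, array 5C with 3 of 15, array 15B with 3 of 17 and array 1F with 3 of 19. In array 1E, 5 members had widths of 129 or 130 bases, at 128667040-128667169, 128697186-128697314, 128699655-128699783, 128703922-128704050 and 128713122-128713250. Fibrillar collagen genes have exons that are classically 45, 54, 99, 108 or 162 bases long. By full width, 9 of 629 members (1.43%) had exactly one of these lengths, against 0.86% of other short regions. Stray reads can stretch the full width, and core widths were not compared with these lengths. Array 1L had the lowest median core width, 57 bases (42 to 444), and array 1F the next lowest, 112 bases. Widths that are a multiple of 3 made up 42.4% (25 of 59) of the members with 200 or more reads and 33.8% of other short regions of that depth. Widths that are a multiple of 9 made up 15.3% (9 of 59) and 11.2%. These shares rest on few members.

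Edges were sharpest in the arrays that were higher in pFF, which are named below. An internal exon would end abruptly for reads of both strands, so the outermost start of strand F was compared with the outermost start of strand R at each side. Both lay within 5 bases of each other at 340 of 1258 edges of members (27.0%), at 23.2% of edges of other short regions and at 7.64% of edges of wider regions. With 200 or more pooled reads the shares were 50.8% (60 of 118 edges) for members, 37.6% for other short regions and lower for wider ones (3023 of 25198 edges). The excess lay in the arrays higher in pFF, with 39.6% (107 of 270) at any depth and 53.9% (55 of 102) at 200 or more reads. Members of the arrays without a 4-fold difference had 23.2% (208 of 896) at any depth, as other short regions did, and 31.3% (5 of 16) at 200 or more. The share rose with depth in each of these groups. Members of the arrays higher in pFF had a median of 119 pooled reads, against 43 in the arrays without a 4-fold difference and 43 in other short regions. The contrast at any depth therefore cannot be told apart from depth. Arrays 1E and 1F supplied 39 of the 59 members of that depth. In array 1E the member at 128678676-128678819, 144 bases wide with 1 pEGC and 405 pFF reads, had both strands start at the same base on both sides. Between the libraries, edges of members with 20 or more reads in each lay within 5 bases at 108 of 272 edges (39.7%), against 42.0% for other short regions and 18.5% for wider ones. The share of reads on strand F was 43.0% to 56.5% per array, so no array was read from 1 strand.

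Spacing was uneven. The 596 gaps between neighbouring members ran from 168 to 9995 bases with a median of 2376.5 (quartiles 1131 and 4413.75). A share of 21.6% (129 gaps) was 1 kb or less and 20.0% (119 gaps) was over 5 kb. The median gap per array ran from 1052 bases in array 2A to 5854.5 bases in array 10A. No array was made of short regions alone. All 33 held wider regions within their span, 209 in all and 1 to 18 per array, and the 133 gaps that contained one had a median of 4952 bases, against 1800 bases for the 463 gaps without. The longest row of members with no wider region between them had a median of 9 and ran from 4 in arrays 1J, 5A and 16A to 22 in array 1B. In 5 arrays it reached 15, and with a wider region ending a chain 5 arrays with 88 members are left in place of the 33 with 629. The number of arrays also follows the joining distance, from 500 at 100 bases to 4 at 300 bases.

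Depth differed strongly between arrays. The members took in 17504 pEGC reads, or 0.155% of that library's reads in regions, and 45365 pFF reads, or 0.488%. Each member had 20 to 1709 pooled reads, with a median of 48. Levels are given in RPM, the share of a library's reads in regions outside the chromosome 6 stretch, times 1e+06; these reads number 11268240 for pEGC and 9290569 for pFF. Summed over its members an array had 0.621 to 177 RPM in pEGC and 1.51 to 1384 RPM in pFF. Of the 59 members with 200 or more reads, 51 were in the 7 arrays that were higher in pFF. By the detection rule of at least 10 reads and 1 RPM, 322 of the 629 members were detected in both libraries, 143 in pEGC only, 163 in pFF only and 1 in neither. Over all 75532 regions these counts were 49015, 19360, 7011 and 146, and over the 24065 other short regions 14857, 5473, 3668 and 67. The share detected in pFF only was thus larger among members, and the share in pEGC only was near that of other short regions.

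Of the 33 arrays, 7 were at least 4-fold higher in pFF and 3 at least 4-fold higher in pEGC, where a difference was counted if it also had 50 or more reads in the higher library and an interval beyond 2-fold. The other 23 were not. The log2 ratio of pEGC over pFF had a median of -0.02 over the 33 arrays and 0.47 over all 75532 regions, with 13 arrays above and 20 below the latter. Taken singly, the members had a median of 0.10, other short regions 0.08 and wider regions 0.65. Members and other short regions were thus close at the median. The 7 arrays higher in pFF were 6 on chromosome 1 (1B, 1C, 1E, 1F, 1K and 1L) and 1 on chromosome 2 (2A). The 3 arrays higher in pEGC were 5A and 5B on chromosome 5 and 10B on chromosome 10.

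**Figure D2:**
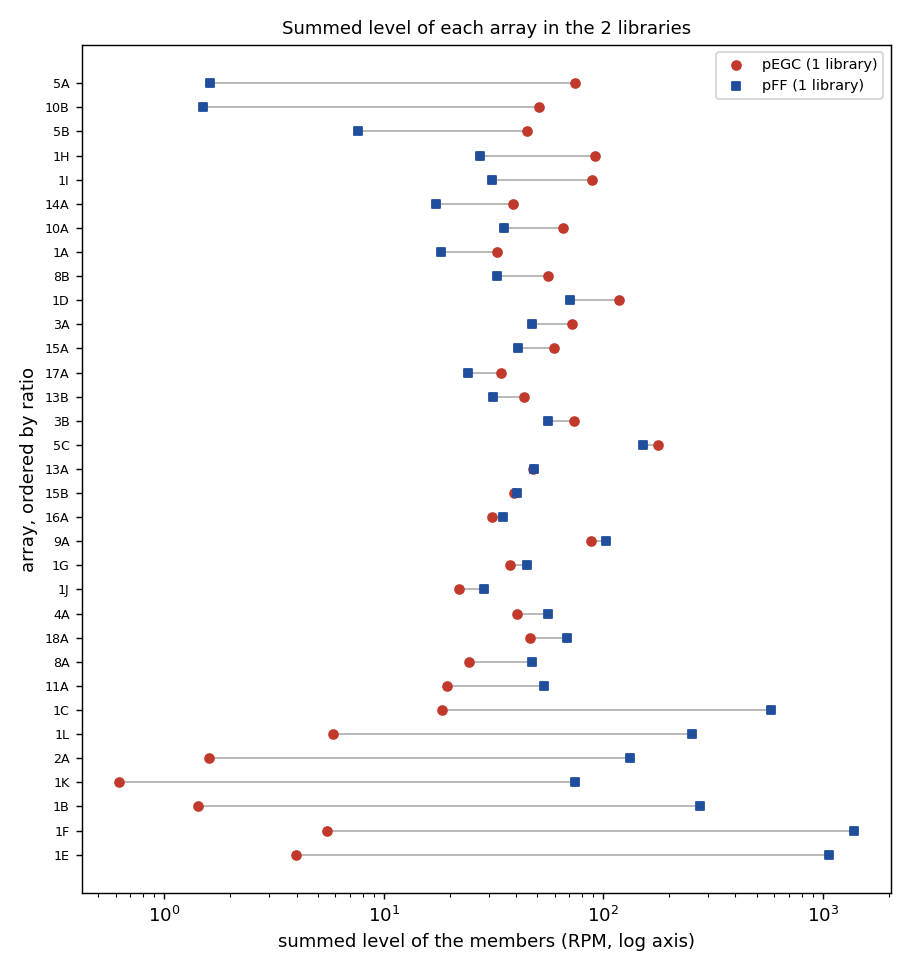
Summed level of the members of each array in RPM on a log axis, for the pEGC library (red circles) and the pFF library (blue squares), with 1 library each and no error bar; arrays are ordered by their ratio. The 7 arrays at the bottom have 74.1 to 1384 RPM in pFF and at most 18.4 RPM in pEGC, and the 3 at the top have 45.1 to 73.9 RPM in pEGC and at most 7.64 RPM in pFF.

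Arrays 1E and 1F had the most reads of all arrays, and the largest ratios when every read was counted; with each position and strand counted once they were 82.0-fold and 51.6-fold higher in pFF, below array 1B at 105-fold and array 1K at 86.7-fold. Array 1E, with 22 members between 128655708 and 128713250, had 45 reads in pEGC (3.99 RPM) and 9865 in pFF (1062 RPM). It was 266-fold higher in pFF (interval 199 to 365). Array 1F, with 19 members between 128725250 and 128771551, had 62 reads in pEGC (5.50 RPM) and 12857 in pFF (1384 RPM). It was 252-fold higher in pFF (196 to 328). All 41 members of this pair were higher in pFF, and the highest pEGC count of any of them was 11 reads, at 128734388-128734721, beside 1698 pFF reads. The first member of array 1E, at 128655708-128655908, had 3 and 404 reads, and its last, at 128713122-128713250, had 1 and 363. In array 1F the first member, at 128725250-128725430, had 4 and 325 reads, and the last, at 128771340-128771551, had 2 and 1023. The member with the most reads per possible start of a read was 125 bases wide, at 128744521-128744645 in array 1F, with 4 and 1600 reads.

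The remaining arrays higher in pFF had lower levels in that library. Array 1B, with 25 members between 81712631 and 81774796, had 16 reads in pEGC and 2575 in pFF, 195 times the RPM (120 to 342). No pEGC read fell in 12 of its 25 members. Array 1K, between 264119403 and 264188542, had 7 and 688 reads and was 119-fold higher (57.6 to 298), with 13 of 18 members at 0 in pEGC. Array 2A had 18 and 1229 reads and was 82.8-fold higher (52.2 to 140). Arrays 1L and 1C kept more pEGC reads than these. In array 1L (chromosome 1, 289443317 to 289486202) the pFF level was 43.2 times that of pEGC (33.8 to 56.1), and the member at 289448358-289448717 held 42.5% of the pooled reads of the array. Array 1C, from 95901061 to 95956615, had 207 reads in pEGC (18.4 RPM) and 5396 in pFF (581 RPM), a 31.6-fold difference (27.5 to 36.5). All but 1 of its 19 members had pEGC reads. Its last member, at 95956425-95956615, was its deepest with 17 and 959 reads.

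The arrays higher in pEGC were shallower. Array 5A, with 15 members between 59038518 and 59085303, had 833 reads in pEGC (73.9 RPM) and 15 in pFF (1.61 RPM), a 45.8-fold difference (27.6 to 82.2). Its member at 59063838-59063977 had 79 reads in pEGC and 1 in pFF, and 7 of its 15 members had no pFF read. Array 10B, with 15 members between 41448992 and 41499179, had 572 and 14 reads and was 33.7-fold higher in pEGC (19.9 to 62.0). Array 5B, with 16 members between 59126510 and 59169379, had 508 and 71 reads and was 5.90-fold higher in pEGC (4.59 to 7.67). Its first and its last member were less than 2-fold higher in pEGC (34 against 16 reads and 19 against 10). Arrays 1H and 1I, higher in pEGC by 3.33-fold (2.90 to 3.83) and 2.86-fold (2.50 to 3.27), were the next in order and did not reach 4-fold. Array 11A, at a log2 ratio of -1.47, was the nearest on the other side.

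Member by member, 112 of 629 (17.8%) were higher in pFF by the same rule, against a background of 3.61% of all 75532 regions. Higher in pEGC were 17 members (2.70%), against a background of 6.94%. Of other short regions, 4.09% were higher in pFF and 3.27% in pEGC. The pEGC share of the members was thus near that of other regions within the width limit. Of the members, 331 had under 50 pooled reads, and only 198 had the 50 reads in 1 library that counting needs. Shares were therefore also taken among regions with at least 50 reads in 1 library. There 112 of 198 members (56.6%) were higher in pFF against a background of 8.46%, and 17 of 198 (8.59%) were higher in pEGC against 16.3%. Of the 6758 other short regions with that many reads, 984 were higher in pFF and 788 in pEGC. All 112 members counted as higher in pFF lay in the 7 arrays named above, which have 135 members, and 51 of the 59 deepest members were among them. Of the 17 higher in pEGC, 10 lay in arrays 5A, 5B and 10B, 4 in array 1H and 3 in array 1I. No array held members counted in both directions. Every one of the 135 members of the 7 arrays was higher in pFF, including 46 with no pEGC read, and every one of the 46 members of the 3 arrays was higher in pEGC, including 15 with no pFF read. The 7 and the 3 arrays were chosen by the summed reads of these same members, so a shared direction follows in part from that choice. A region with reads in 1 library only had to reach 20 reads through that library, so the direction of such members follows from the minimum once the region is kept.

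**Figure D3:**
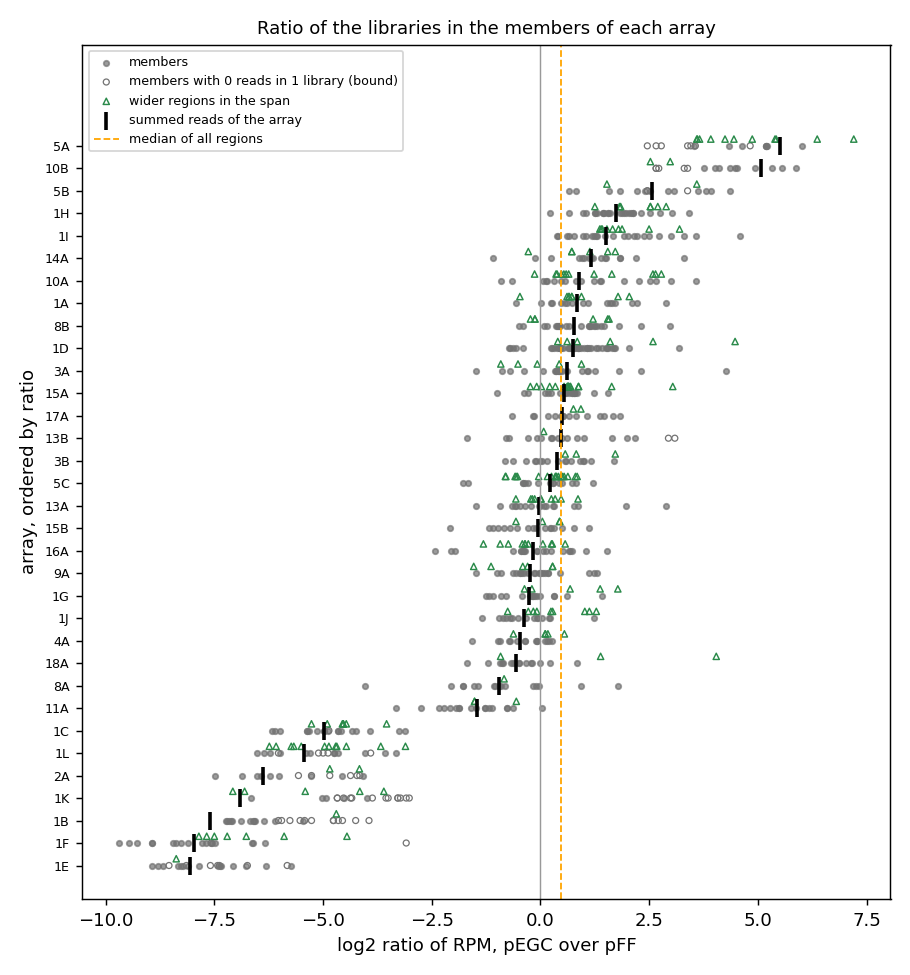
log2 ratio of RPM, pEGC over pFF, for each member (grey points), each wider region within the span (green triangles) and the summed reads of each array (black bars). Open circles are members with 0 reads in 1 library, drawn at the value that 3 reads would give (labelled bound). The dashed line is the median of all regions (0.47). Members of the 7 lowest arrays all lie left of -3 and members of the 3 highest all lie right of 0; the bars of arrays 1B and 1K lie left of nearly all their points because many points are bounds.

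The 10 arrays with a 4-fold difference set the arrays apart from each other. The log2 ratio of the summed reads had an SD of 3.45 over all 33 arrays and of 0.77 over the 23 arrays without a 4-fold difference. Within arrays, the 298 members with 50 or more pooled reads had a pooled SD of 0.77, and the 173 of them in those 23 arrays one of 0.66. The 23 arrays were sorted by that same ratio, which limits the SD between them. Single members also carry more counting error than summed reads. These SDs therefore cannot show whether members of one row differed as much as the rows did. The SD per array ran from 0.26 in array 14A to 1.14 in array 10A, with a median of 0.70 over 28 arrays. The spread was wider than counting error of independent reads would give. The Pearson chi-square of the pEGC share, divided by its degrees of freedom, had a median of 2.52 per array and reached 6.66 in array 5C. Counting error alone would give 1. This value and the intervals treat every read as independent, which copies made in amplification are not. Of the members' reads, 60.7% in pEGC and 30.1% in pFF were at distinct positions. The excess by itself therefore does not show that members differed in ratio. For 105 members (16.7%) the interval of the ratio did not hold the ratio of their array. These were 91 of 448 members in the 23 arrays without a 4-fold difference, 11 of 135 in the arrays higher in pFF and 3 of 46 in those higher in pEGC. Members with few or no reads in 1 library have wide intervals, so these shares do not rank the groups by evenness.

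Some members stood apart from their own array. The last member of array 3A, at 96251871-96252038 on chromosome 3, had 47 reads in pEGC and 2 in pFF, a log2 ratio of 4.28 where the array as a whole was at 0.61. The second member of array 8A, at 32972730-32972809 on chromosome 8, had 2 and 27 reads, a log2 ratio of -4.03 against -0.95. In array 10A, with 19 members between 20949346 and 21049394 on chromosome 10, the ratio changed along the row: the log2 ratio was 1.64 over the first members and 0.30 over the last, splitting the row in the middle. The 2 sides of an array differed by more than 1 in log2 in 4 of 33 arrays, namely 1A, 1K, 2A and 10A; 1K and 2A have 7 and 18 pEGC reads in all.

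Few rows had a steady slope in level. Density is the number of reads divided by the number of positions at which a 34-base read can start inside the member, which allows members of unequal width to be compared. A row was counted as graded when the Spearman correlation of density with the order of members was at least 0.5 in size with the same sign in both libraries. This held for 2 of 33 arrays. Array 5C, with 15 members between 60054130 and 60103422 on chromosome 5, rose with the coordinate, with a correlation of 0.87 in pEGC and 0.71 in pFF. Its last 5 members had 13.98 times the density of its first 5 in pEGC and 8.35 times in pFF. Its first member, at 60054130-60054256, had 10 reads in pEGC and 26 in pFF, and its last, at 60103207-60103422, had 365 and 247. This array also held 18 wider regions, more than its members. Array 9A, with 23 members between 119854783 and 119901268 on chromosome 9, fell with the coordinate, with correlations of -0.71 and -0.70. Its last 7 members had 0.19 times the density of its first 7 in pEGC and 0.16 times in pFF. Its first member, at 119854783-119854910, had 67 and 104 reads, and its last, at 119900837-119901268, had 24 and 8. Array 15B fell just short, at 0.50 and 0.49.

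**Figure D4:**
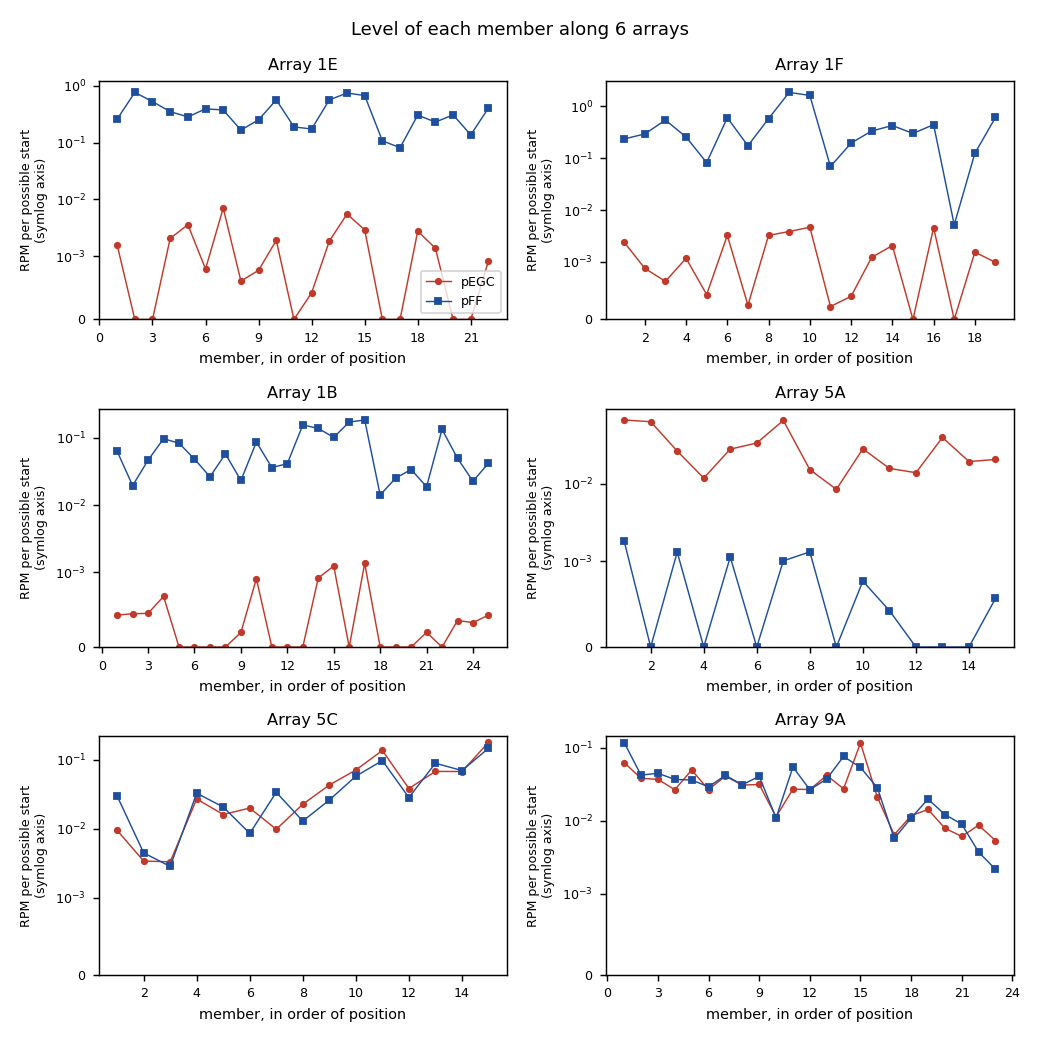
Level of each member in RPM per possible read start, on an axis that is linear to 0.001 and logarithmic above, against the order of members by coordinate, for pEGC (red circles) and pFF (blue squares) in 6 arrays. Arrays 1E, 1F and 1B stay separated along the row in favour of pFF and array 5A in favour of pEGC, array 5C rises and array 9A falls in both libraries.

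Members of one array differed widely in density in most arrays, graded or not. In 23 of 33 arrays the correlation with order had the same sign in both libraries, mostly below the size of 0.5. The densest member of an array had a median of 10.1 times the density of the sparsest. In array 1F the densest, at 128744521-128744645, had 17.4 pooled reads per possible start, and the sparsest, at 128764522-128764989, had 0.05. Density along the row was correlated between the libraries. In the 24 arrays with 6 or more members of at least 10 reads in both libraries, the Pearson correlation of log density between pEGC and pFF over members had a median of 0.82 and ran from 0.62 to 0.96. These values are across members that share sequence and mapping, and are a description. Both densities of a member also have the same divisor, which by itself can raise the correlation. How far the reads alone agree was not tested. Width was only loosely tied to reads, with a Spearman correlation of 0.26 at the median and above 0 in 23 of 33 arrays.

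Wide regions next to the rows did not mark the deep end. A region wider than 500 bases lay within 10 kb of the last member by coordinate in 12 arrays, of the first in 6, of both in 9 and of neither in 6. Taking the wider of the flanks where there were both, pooled density rose toward the flank in 13 of 27 arrays. Neither graded array rose toward its widest flank: that of array 5C, 3240 bases wide at 60048158-60051397 with 7066 and 3631 reads, lay before its sparse first member, and that of array 9A, 4331 bases wide at 119906704-119911034, lay after its sparse last member. The flank before array 2A, at 118861262-118863687, had 39 reads in pEGC and 1165 in pFF, 36.2 times the RPM (26.3 to 51.2), in the direction of its array. The region after array 1F went the other way from its array. It lay 9401 bases beyond the last member, at 128780953-128782630, with 3312 pEGC and 24 pFF reads, a level 114 times higher in pEGC (76.3 to 178).

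Within 100 kb of each other lay 3 pairs of arrays. Arrays 1E and 1F were 11999 bases apart, with log2 ratios of -8.05 and -7.97, and the widest of the 3 regions between them, 3962 bases at 128716435-128720396, had 1 and 208 reads. Arrays 1H and 1I were 35.2 kb apart, with log2 ratios of 1.73 and 1.51. Arrays 5A and 5B were 41.2 kb apart with no region of 20 reads between them, and their log2 ratios of 5.52 and 2.56 differed more, although both were counted as higher in pEGC.

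Of all regions wider than 500 bases, 8.73% were higher in pEGC and 3.20% higher in pFF by the 4-fold rule. In the 7 arrays higher in pFF, 29 of 35 wider regions inside the spans were higher in pFF and none in pEGC. In the 3 arrays higher in pEGC, 9 of 15 were higher in pEGC and none in pFF; all 9 were among the 11 in array 5A, and none of the 2 each in arrays 5B and 10B. In the other 23 arrays 5 of 159 were higher in pEGC and none in pFF. The arrays were grouped by the ratio of members in the same spans, so a low share here can follow from that grouping. Regions with under 50 reads in each library could not be counted.

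The thin reads between regions, which belong to no kept region, were examined last. Over all arrays 3735 reads of pEGC and 2257 of pFF fell in 1603 kb of gaps outside any region. In the 7 arrays higher in pFF the gaps held 2.61 to 4.07 pFF reads per kb and 0 to 0.768 pEGC reads per kb. In the 3 arrays higher in pEGC they held 3.18 to 4.72 pEGC reads per kb and 0.112 to 0.439 pFF reads per kb. Gaps of the 10 arrays with a 4-fold difference thus differed in the direction of the members. In array 1B the gaps had 1 pEGC and 176 pFF reads, and in array 1F 0 and 98. With the pEGC count set to 3 the gaps of array 1F were 39.6-fold higher in pFF, and the lower end of the interval was 31.6-fold. The difference was smaller in the gaps than in the members of array 1C, at 4.81-fold (3.27 to 7.28) against 31.6-fold. The 23 other arrays had a median of 2.82 pEGC reads and 1.05 pFF reads per kb of gap. In 22 of these 23 the gaps leaned more toward pEGC than the members did, by a median of 0.78 in log2 over the 23. The same held in 28 of all 33, with array 1F taken at 3 pEGC reads. Over the whole genome 9.87% of pEGC reads and 4.55% of pFF reads lay outside all regions, a log2 ratio of 0.84 on the scale used for the members. In the 10 arrays with a 4-fold difference the gaps differed from the members by -2.49 (array 10B) to 2.72 (array 1C) in log2.

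**Figure D5:**
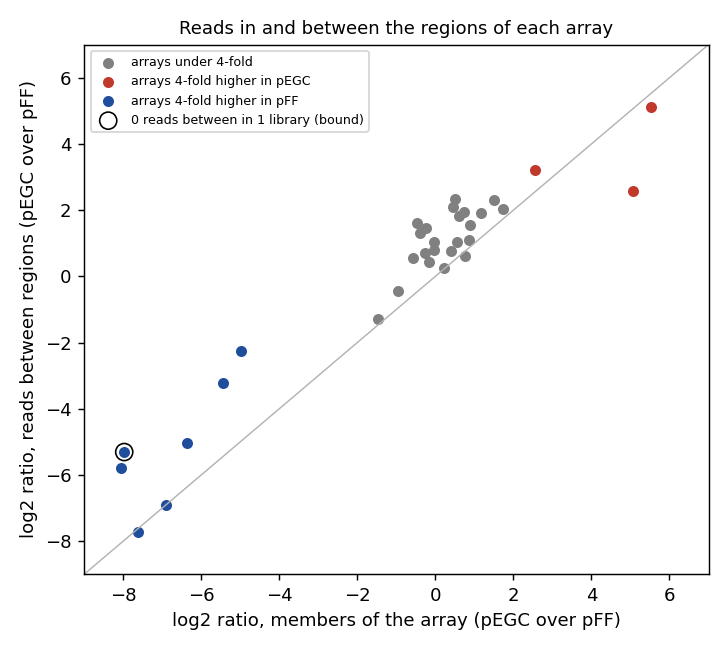
log2 ratio of pEGC over pFF in the reads between regions against that in the members, 1 point per array, with the line of equal values. The ringed point has 0 pEGC reads between regions and is drawn at the value that 3 reads would give (labelled bound). All 10 arrays with a 4-fold difference lie on the same side of 0 on both axes, and 28 of 33 points lie above the line.

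Reads stacked at the same position and strand were frequent where the level was high. In the 7 arrays higher in pFF, 13.8% to 57.3% of the pFF reads were at distinct positions, against 72.2% to 100.0% of the few pEGC reads. With each position and strand counted once per library, the differences of all 10 arrays shrank, kept their direction and changed their order. Array 1B then led at 105-fold higher in pFF, before array 1K at 86.7-fold, array 1E at 82.0-fold, array 2A at 58.2-fold, array 1F at 51.6-fold, array 1L at 16.9-fold and array 1C at 12.3-fold. Of the arrays higher in pEGC, array 5A fell from 45.8-fold to 22.3-fold, array 10B from 33.7-fold to 21.8-fold and array 5B from 5.90-fold to 4.12-fold, just above the limit of 4-fold. Copies made in the amplification of the library and separate molecules that start at the same base cannot be told apart.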

How the data were processed

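The deposited files are lists of mapped reads, 1 per library, with chromosome, start, end and strand of each 34-base read; they hold no score or count. Both hold 14324517 reads; why the numbers are equal is not recorded. The genome build is not given in the sources used here, nor are the aligner and its filters. On 6 of 19 chromosomes reads lie beyond the last gene of the reference gene table at hand, so neither genes nor sequences were taken from it. Regions, chains, ratios and intervals were computed with Python 3.11.15, numpy 2.4.6, pandas 2.3.3 and scipy 1.17.1, and drawn with matplotlib 3.10.9; the steps were tested on simulated data. A wider region between short ones does not end a chain. Ratios are of RPM, with 0 reads replaced by 3 where a ratio needs it. The arrays named are those with the most members, most reads, largest ratio in each direction, highest and lowest spread, and a gradient, plus some chosen after their values were seen (1A, 1J, 1L, 8A, 11A, 15B and 16A). Core width, the width window, the split of rows, members off the ratio of their array, flank ratios and the gap comparisons were added after seeing the data. The members and lists were chosen with earlier results of these data known.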

Additional observations from a re-analysis of the deposited data

How the results depend on the processing

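The number of arrays depends strongly on the definition. Against 33 arrays with 629 members, 3 and 7 arrays higher in pEGC and pFF, 17 and 112 members higher in pEGC and pFF, and 2 graded arrays, the counts in that order were as follows. Joining starts within 100 bases gave 500 arrays with 10769 members, 27 and 24, 349 and 556, and 34, and within 300 bases 4 with 79, 0 and 3, 0 and 41, and 0. A minimum of 10 reads gave 154 with 3059, 8 and 12, 50 and 154, and 8, and of 50 reads 5 with 100, 0 and 4, 0 and 81, and 1. A width limit of 300 bases gave 7 with 133, 0 and 3, 1 and 38, and 1, and of 1000 bases 204 with 4002, 11 and 13, 122 and 288, and 12. A gap of 5 kb gave 8 with 141, 0 and 4, 0 and 63, and 1, and of 20 kb 100 with 2045, 6 and 9, 58 and 200, and 3. Chains of 10 or more gave 146 with 1922, 9 and 18, 64 and 188, and 9, and of 20 or more 9 with 227, 0 and 2, 7 and 44, and 1. With a wider region ending the chain there were 5 with 88, 0 and 2, 0 and 39, and 0. Regions from pEGC reads alone gave 117 with 2293, 8 and 4, 40 and 84, and 8, and from pFF reads alone 201 with 4043, 1 and 15, 51 and 198, and 12. Both of these settings also lowered the minimum to 10 reads, counted in that library alone, so they change more than the library. The cause was not tested beyond the construction of each setting. An array was taken as found when the chains of a setting covered at least 50% of its span. The 33 arrays were found under 6 to 12 of these 13 definitions: array 1E under 12, arrays 1B and 9A under 11, array 1F under 8, and arrays 5A, 5B, 10B and 1L under 6. A minimum of 10 reads, a width limit of 1000 bases, a gap of 20 kb and chains of 10 or more only loosen the rule. They keep every array by construction. Arrays 5A, 5B, 10B and 1L were found under no stricter limit of reads, width, gap or chain length.

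The median log2 ratio over arrays, -0.02, moved with the scaling: to 0.34 with the chromosome 6 stretch, to 0.25 with all reads, to -0.44 with a trimmed mean of M-values, to -0.46 with the median of ratios and to -0.22 with each position counted once. The first 4 shift every region alike, by 0.36, 0.28, -0.41 and -0.44. Counting each position once left 2 members higher in pEGC and 61 in pFF, and an 8-fold rule 11 in pEGC. For the 9 named arrays with a 4-fold difference none of 63 alternative ratios changed direction. The 4 scalings that shift every region alike are too small to turn a 4-fold difference, so their part of this was fixed in advance. For the other 11 named arrays, which lie nearer to equal levels, 7 of 77 changed sign. Members with few reads set the limits: 331 had under 50 pooled reads, and only 198 had 50 or more in 1 library. No paired analysis was possible because each group has 1 library.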
